A study of Mus musculus with 2 samples.

Results

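The 85 genes described here encode, with few exceptions, the proteins of the cytosolic ribosome, and the measurement is where they lay relative to chromatin loops of mouse embryonic stem cells. They are all protein-coding genes of chromosomes 1 to 19 in the mm10 RefSeq gene table whose symbol is Rpl, Rps or Rplp followed by a digit, or Rpsa, without the Rps6k kinases and symbols with -ps. That is 85 of 20665 protein-coding genes, chosen by name and not by any measured value, though with earlier results of these data known. Of these, 73 are the canonical ribosomal proteins. The other 12 are paralogs, retrogenes or name matches: Rpl3l, Rpl7l1, Rpl10l, Rpl22l1, Rpl32l, Rpl36al, Rpl37rt, Rpl39l, Rps27l, Rps27rt, Rps23rg1 and Rps19bp1, the last of which encodes a protein that binds a ribosomal protein.

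The assay was Micro-C, which maps contacts between genomic sites after micrococcal nuclease has cut crosslinked chromatin, and the cells were wildtype V6.5, a male mouse embryonic stem cell line. Both samples belong to 1 group, siControl, transfected with siGLO, a transfection control reagent, at 50 nM and collected 48 hours later. The group is a single cell line without a second condition here. The data are 1 list of loops for the group, with 4858 loops on chromosomes 1 to 19, each a pair of genomic intervals (anchors) that touch more than the sites around them do. It carries neither separate values for the 2 samples nor a read depth, so no value below has a replicate error. No expression was measured, so the cell type could not be checked against markers. Shares carry exact Clopper-Pearson 95% intervals, which cover counting error over genes only, and genes are not replicates.

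The ribosome is built from a large and a small subunit, and a stalk on the large subunit recruits the elongation factors of translation. Its protein genes are short, are spread over nearly all chromosomes, and are among the most strongly transcribed genes of growing cells, including embryonic stem cells. Many carry a run of pyrimidines at the start site, and many host small nucleolar RNAs (snoRNAs), which guide rRNA modification, in their introns. Loops form when the cohesin ring extrudes chromatin until it is halted, most often at sites bound by CTCF, so a gene can lie at an anchor, inside a loop or outside all loops.

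The members shared several features that the choice by name did not use. The median gene length was 3230 bp (quartiles 2334 and 4715 bp), against 17491 bp over all protein-coding genes. The median member had 5 other protein-coding genes within 100 kb, against 4 over all genes. A snoRNA gene lay inside 28 of 85 records (32.9%), against 1.72% of all protein-coding genes. All 28 were canonical members. Rpl4 had 5 snoRNA genes, and Rpl7a and Rpl13a had 4 each.

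Start sites and strand were available for 65 members in a RefSeq promoter table (GRCm38.p6, the assembly that mm10 names). Each entry covers 300 bases, from 250 before the start to 50 from it. A C at the start site followed by 4 pyrimidines was present in 14 of 65 members (21.5%) and in 2.17% of 16457 protein-coding promoters. This match was read at the annotated start base only, so a run of pyrimidines a few bases away was not counted. The annotated start was the outer end of the gene record for 55 of the 65 members. The 9 motifs searched on both strands were chosen with these genes in mind, after earlier results were known. Of these, the letters CTTCCG, the core bound by ETS factors, were found in 63.1% of members and 21.9% of all promoters. CCGGAA, which overlaps it, was found in 47.7% against 19.6%, and the pyrimidine-rich CTTTCC in 46.2% against 25.95%. GGGCGG was found in 56.9% against 47.3%, AAGATGG in 15.4% against 6.41%, CCATCTTGG in 3.08% against 0.954%, and the palindromic CGCG element of some promoters without a TATA box in 7.69% against 0.723%. TATAAA was found in 9.23% against 13.5%. Letters taken from the core of the CTCF motif were found in 3.08% against 2.39%. These are letter matches in a window, and no binding was measured.

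The promoters of 6 members are shown as examples of 3 positions relative to loops, in 3 pairs. Each is written 5′ to 3′ on the strand of the gene, from 130 bases before the start site to 20 bases from it. Capitals mark matches to CTTCCG on either strand and the base at the start site. The first pair had its start site inside an anchor: Rpl37 (chr15:5116483-5116632, plus strand) and Rpl37a (chr1:72711130-72711279, plus strand).
Rpl37: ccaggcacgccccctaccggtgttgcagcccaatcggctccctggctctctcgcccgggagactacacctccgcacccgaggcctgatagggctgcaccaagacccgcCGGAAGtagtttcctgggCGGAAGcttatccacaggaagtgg
Rpl37a: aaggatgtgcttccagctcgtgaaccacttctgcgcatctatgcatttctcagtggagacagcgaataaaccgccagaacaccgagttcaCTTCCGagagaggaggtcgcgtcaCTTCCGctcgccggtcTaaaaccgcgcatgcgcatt
The second pair lay close to an anchor without touching one: Rpl4 (chr9:64173257-64173406, plus strand) and Rpl35 (chr2:39005112-39005261, minus strand).
Rpl4: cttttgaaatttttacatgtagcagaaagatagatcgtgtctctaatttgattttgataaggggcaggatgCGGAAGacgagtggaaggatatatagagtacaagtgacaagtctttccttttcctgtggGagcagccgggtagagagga
Rpl35: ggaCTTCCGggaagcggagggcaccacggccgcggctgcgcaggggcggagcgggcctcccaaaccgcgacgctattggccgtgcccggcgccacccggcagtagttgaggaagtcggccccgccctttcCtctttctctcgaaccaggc
The third pair, of the canonical members with a table entry, had the smallest enclosing loops: Rpl14 (chr9:120571387-120571536, plus strand) and Rps19 (chr7:24884462-24884611, plus strand).
Rpl14: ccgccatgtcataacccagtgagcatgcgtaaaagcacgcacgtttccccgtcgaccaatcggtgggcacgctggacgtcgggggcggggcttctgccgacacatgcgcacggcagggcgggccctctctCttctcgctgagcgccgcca
Rps19: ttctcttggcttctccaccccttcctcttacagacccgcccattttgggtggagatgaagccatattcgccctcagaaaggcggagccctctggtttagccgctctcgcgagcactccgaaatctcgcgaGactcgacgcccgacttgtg
CTTCCG or its complement occurred 2 times in the printed stretch of Rpl37 and of Rpl37a and 1 time in Rpl4 and in Rpl35. It was not found in Rpl14 or Rps19 within the 300 bases, although those of Rpl14 held CCGGAA. The 6 examples do not show a link of these letters with position. Enclosed Rpl24, Rpl15 and Rps7 carried CTTCCG, while Rps24, Rpl5 and Rpl9, close to an anchor and outside every loop, did not. Rpl35 and Rpl14 start with a C followed by 4 pyrimidines.

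Few ribosomal protein genes lay at a loop anchor. The first or last base of the gene was inside an anchor for 5 of 85 members (5.88%, interval 1.94 to 13.2%), against 9.19% of all protein-coding genes. Among genes of like density and length the share was 6.72%. This comparison share is the mean over members of the share among other genes in the same class of local gene density (5 classes of genes within 100 kb) and length (5 classes). Both comparison shares lay inside the members' interval, and the sign of the small difference changed with the setting. An anchor overlapped no further member, whereas 18.1% of all genes, most of them longer, were overlapped (6.89% of like genes).

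All 5 members at anchors encode large subunit proteins. Rpl37 (chromosome 15, 5116613 to 5119140) lay whole inside an anchor from 5110001 to 5120000 that also held an end of Card6. Its loop ran 1120 kb toward lower coordinates to an anchor with an end of AW549877, with a peak score, the loop caller's own strength value, of 6.13. That score stood at percentile 93.95 of autosomal loops of 10 kb pixels, the grid size at which the loop was listed. Rpl37a (chromosome 1, 72711260 to 72713813) lay whole inside an anchor from 72710001 to 72720000. Its loop ran 1120 kb toward higher coordinates, with a peak score of 4.65 (percentile 75.3). Rpl30 (chromosome 15, 34440505 to 34443276) lay inside an anchor of 25 kb shared with an end of Matn2, with a loop of 2925 kb and a peak score of 5.06 (percentile 84.4 of 25 kb pixels).

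The other 2 members at anchors stuck out of them, on the side away from the loop. Rpl29 (chromosome 9, 106428889 to 106431568) overlapped an anchor that ends at 106430000, and its loop ran 140 kb to lower coordinates with a peak score of 4.01 (percentile 51.2). Rpl17 (chromosome 18, 74998978 to 75003381) overlapped an anchor that ends at 75000000, and its loop ran 560 kb to lower coordinates with a peak score of 3.52 (percentile 26.65). Its peak pixel value was low, at percentile 0.135 of loops of 10 kb pixels. None of the far anchors of Rpl37a, Rpl30, Rpl29 and Rpl17 held a protein-coding gene end. The 5 scores spanned percentiles 26.65 to 93.95, so these loops were neither uniformly high nor low in score. Peak pixel values ranked the loops differently. Their percentiles among loops of the same pixel size were 84.1 for Rpl29, 65.6 for Rpl37a, 56.75 for Rpl37 and 6.92 for Rpl30.

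By subunit, an end at an anchor was found for 5 of 48 large subunit members (10.4%, 3.47 to 22.7%), 0 of 34 small subunit members and 0 of 3 stalk members. The exact interval of 0 of 34 reaches 10.3%, which holds the 9.19% of all genes, and the intervals of the subunits overlap. By the limit of 3 counts, 0 of 34 allows a share of up to 8.82%.

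**Figure D1:**
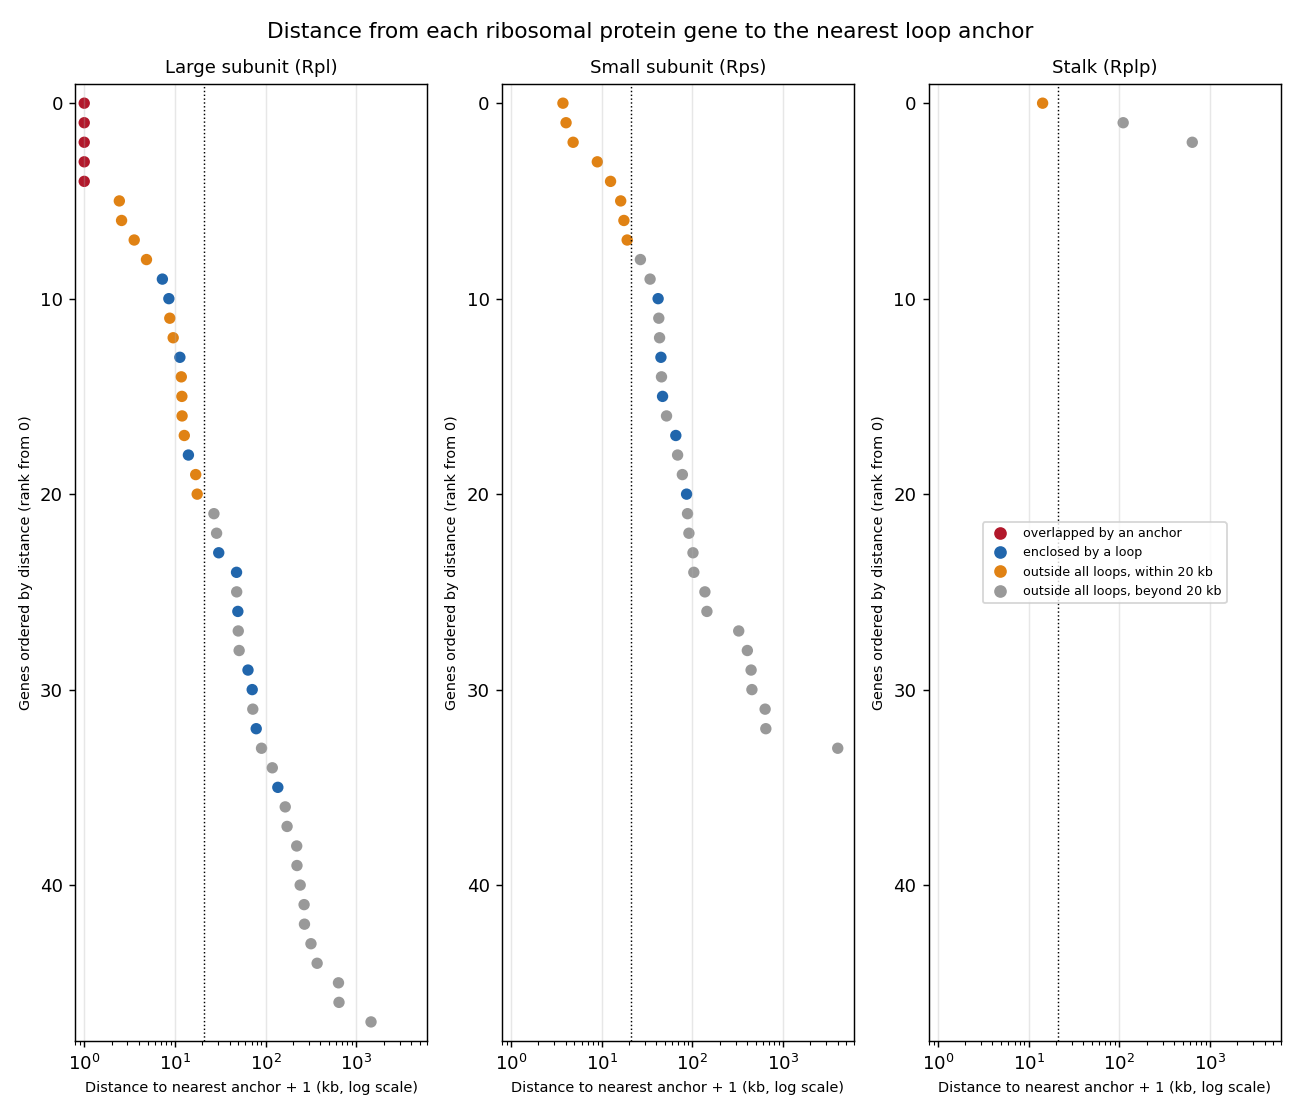
Distance from the nearest gene end to the nearest loop anchor for each member (x axis, kb plus 1, log scale; the dotted line marks 20 kb), 1 point per gene ordered by distance (y axis, rank) in 3 panels for large subunit, small subunit and stalk genes. The 5 red points at 0 kb are all large subunit genes, orange points (outside all loops) fill most of the range up to 20 kb, and 27 points lie beyond 100 kb.

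Ribosomal protein genes lay inside loops less often than other genes. A member was counted as enclosed when its whole record lay between the inner edges of the anchors of at least 1 loop. This held for 17 of 85 members (20%, 12.1 to 30.1%), against 33.0% of all protein-coding genes and 36.3% of genes of like density and length, which would give 30.9 members. The members' interval lies below both shares. With classes of chromosome and gene density the comparison share was 30.2%, just above the interval. The difference was below 0 under all 15 alternatives, from -18.95 to -4.49 percentage points. Chromosomes 7 and 17, on which only 19.8% of genes were enclosed, held 22 of the members (3 enclosed). Without these chromosomes 22.2% of members and 41.2% of like genes were enclosed. In all, 64 of 85 members were neither overlapped by an anchor nor enclosed, 21 of them within 20 kb of an anchor and 43 farther away. Over all 20665 genes these classes numbered 1441 and 9946, so most genes were also in this state.

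Enclosed genes came from both subunits. They were 12 of 48 large subunit members (25%, 13.6 to 39.6%), 5 of 34 small subunit members (14.7%, 4.95 to 31.1%) and 0 of 3 stalk members, with overlapping intervals. Like genes were enclosed in 35.7% of cases for the large and 36.9% for the small subunit. The large subunit interval held its share of like genes, and the small subunit interval lay below its own. Of the 73 canonical members 13 were enclosed (17.8%, 9.84 to 28.5%), against 36.6% of like genes. Of the 12 others 4 were enclosed (33.3%, 9.93 to 65.1%), near the 34.8% of genes like them.

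Among enclosed large subunit genes, Rpl14 sat in the smallest loop, of 85 kb with a peak score of 5.22. Rpl24 lay in a loop of 180 kb (6.34) and 6.28 kb from its anchor. Rpl21 lay in nested loops of 195 kb (5.22) and 625 kb (3.79), and the larger ended at an anchor with Cdx2, a trophectoderm and gut regulator, and Urad. Rpl22, a protein known as a binder of RNA outside the ribosome, lay in a loop of 240 kb (3.64). Its paralog Rpl22l1 lay in one of 400 kb (5.59).

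Further large subunit genes lay in loops of 140 to 4700 kb. Rpl34 lay in loops of 1125 kb (3.88) and 1900 kb (5.14). Rpl15 lay in a loop of 4700 kb (10.4), the longest around a member. Rpl31 lay in a loop of 520 kb (6.17) and Rpl28 in one of 380 kb (4.09). Rpl37a, at an anchor of its own loop, also lay in a loop of 525 kb (4.19). Among the paralogs, Rpl39l lay in loops of 170, 330 and 430 kb and Rpl32l in one of 140 kb.

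Among small subunit genes, Rps19, mutated in Diamond-Blackfan anaemia, lay in a loop of 150 kb with a peak score of 4.69. Rps27a, which encodes a fusion with ubiquitin, lay in a loop of 620 kb (5.09) and Rps7 in one of 690 kb (4.11). Rps23rg1 lay in loops of 210 and 525 kb. Rps9 lay in 3 loops, of 490, 660 and 810 kb, with peak scores of 40.8, 6.35 and 35.4. The peak pixels of these 3 stood at percentiles 32.6, 4.02 and 73.7 of loops of 10 kb pixels, so the high scores did not go with extreme pixel values.

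The 24 loops that enclosed members had a median span of 460 kb (quartiles 206 and 634 kb) and held a median of 6 protein-coding genes. Over all autosomal loops the median span was 325 kb (190 and 550 kb). These spans are not a like comparison, because a longer loop can enclose a gene more easily. Over enclosed genes, the smallest enclosing loop had a median span of 380 kb for members, 375 kb for all genes and 390 kb for genes of like density and length. For the 13 canonical enclosed members it was 490 kb (quartiles 195 and 620 kb). Of the 17 enclosed members, 12 lay in 1 loop, 3 in 2 and 2 in 3.

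**Figure D2:**
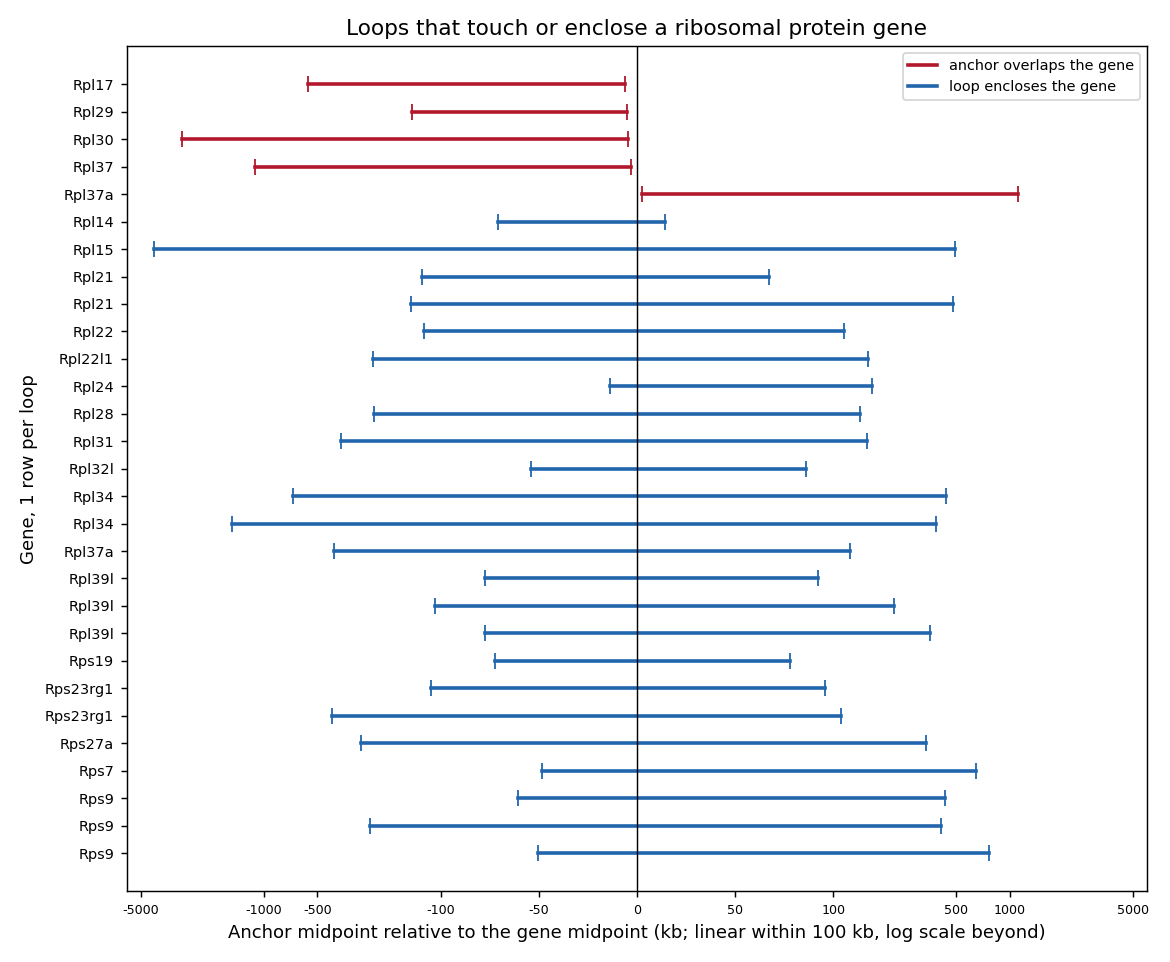
Each horizontal line is 1 loop that overlaps (red) or encloses (blue) a member, drawn between its anchor midpoints relative to the midpoint of the gene at 0 (x axis, kb, linear within 100 kb and log scale beyond). The 5 red loops lead away from the gene, 4 toward lower and 1 toward higher coordinates, and Rpl15 has the longest loop, of 4700 kb.

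Ribosomal protein genes that came close to an anchor mostly lay just outside the loop. This measure and its 20 kb window were chosen after the data were examined. Without being overlapped, 25 of 85 members (29.4%, 20.02 to 40.3%) had an end within 20 kb of an anchor, against 15.3% of all genes and 13.8% of like genes. Of these 25, 4 were enclosed by any loop (16%, 4.54 to 36.1%), against 54.4% of all genes within 20 kb and 60.1% of like genes there. Thus 21 members (24.7%, 15.99 to 35.3%) lay within 20 kb of an anchor and outside every loop, against 6.97% of all genes and 5.70% of like genes. The excess was present under all 15 alternatives, from 1.76 percentage points with loops of 25 kb pixels to 25.97 with a window of 100 kb. Beyond 20 kb, 12 of 55 members were enclosed (21.8%, 11.8 to 35.01%), against 27.8% of all such genes and 31.4% of like genes there. Both of these shares lay inside the interval, above the share of members.

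Relative to the loop of their nearest anchor, 23 of the 25 near members lay on the outer side (92%, 73.97 to 99.02%), against 58.3% of all genes within 20 kb and 54.5% of like genes. The share of members was 91.7% within 10 kb, 87.5% within 50 kb and 83.02% within 100 kb. No share over other genes is given for these windows, so an excess there cannot be read from them. Only Rpl24 and Rpl14 lay on the inner side. Rpl22l1 and Rpl31 lay outside the nearest loop but inside another.

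Among large subunit genes, Rpl4, at 1.44 kb, and Rpl35, at 1.58 kb, lay very close to an anchor without touching it. The loops at these anchors spanned 90 and 65 kb, with peak scores of 3.36 and 4.05. Both scores were below 4.15, the median over autosomal loops of all pixel sizes. The first loop was listed at pixels of 10 kb and the second at 5 kb, so the 2 scores are not like for like. Among small subunit genes, Rps24 lay 3.04 kb from the anchor of a loop of 425 kb with a peak score of 5.15. These 3 genes lay outside every loop.

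Other members of this kind included Rpl3, at 7.78 kb, Rps3a1, at 7.94 kb, and Rpl9, at 8.57 kb. Rpl11, which together with Rpl5 and the ribosomal 5S RNA can bind the p53 regulator Mdm2, lay at 16.6 kb, and Rpl5 lay between Rpl23a, at 10.9 kb, and Rps13, at 11.5 kb. The stalk gene Rplp1 lay at 13.3 kb. Rps2 and its neighbour Rpl3l were outside the same anchor, at 18.1 and 3.86 kb, so the 25 members lay beside 24 anchors. Rps2 was the last inside the window, and the next, Rps19bp1, lay at 25.7 kb.

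**Figure D3:**
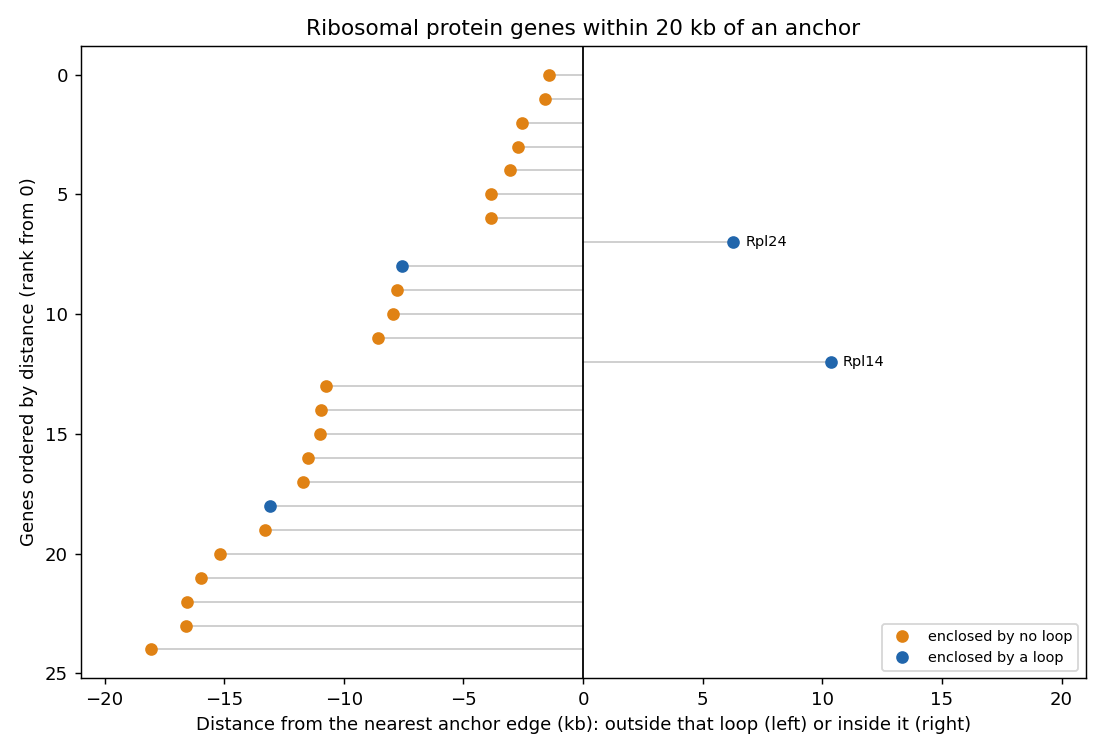
Each point is 1 of the 25 members with an end within 20 kb of an anchor and not overlapped by it, at its distance from the anchor edge (x axis, kb) and ordered by it (y axis, rank), to the left when the gene lies outside the loop of that anchor and to the right when inside. 23 points lie on the left, and only Rpl24 and Rpl14 lie on the right.

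The strand was known for 19 of the 25 near members, and most had their far end, not their start, toward the anchor. The start was the nearer end for 3 of 19, Rpl11, Rpl9 and Rpl24 (15.8%, 3.38 to 39.6%), against 45.4% of all genes within 20 kb with a known strand. The other 16, among them Rpl4, Rpl35, Rps24, Rpl5 and Rps2, were transcribed toward the anchor. The share depended on the window: the start was nearer for 2 of 8 members within 10 kb (25%) and for 12 of 32 within 50 kb (37.5%). For these windows, too, no share over other genes is given. The comparison of starts was also chosen after the data were examined.

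Other members lay far from any anchor, but as a set the members lay no farther away than other genes. The median distance was 47.0 kb (quartiles 11.5 and 136 kb), against 58.97 kb for all genes (12.8 and 209 kb) and 108 kb for like genes. More than 100 kb separated 27 members from an anchor, a distance that the median of like genes also exceeded. Rpl10l, a retrogene expressed in testis, lay 1453 kb away and Rpl7l1 644 kb.

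Members close to each other on a chromosome did not share loops, but few pairs were close. Pairs of other genes were not counted, so this cannot be called particular to the members. No loop joined anchors at a pair of members and none of the 24 enclosing loops held more than 1 member, under any of the 8 alternatives run for the latter. Of 67 pairs of neighbouring members on a chromosome, 7 lay within 250 kb. Rps29 and Rpl36al, 23.6 kb apart, and Rpl41 and Rps26, 75.4 kb apart, had no anchor between them. Among these 7 pairs, anchors lay only between Rpl23 and Rpl19, 240 kb apart.

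Among other genes of protein synthesis, those of ribosome assembly were enclosed less often than genes like them. A list of 202 entries for rRNA synthesis, ribosome assembly and translation factors, written with earlier results of these data known, matched 194 genes on chromosomes 1 to 19. Of these 41 were enclosed (21.1%, 15.6 to 27.6%), against 31.1% of genes of like density and length. Assembly factors were enclosed in 16 of 100 cases (16%, 9.43 to 24.7%), against 32.3% of genes like them. The shares of 8 of 27 rRNA synthesis genes (29.6%, 13.8 to 50.2%, against 30.5%) and 17 of 67 translation factors (25.4%, 15.5 to 37.5%, against 29.5%) had intervals that held the share of like genes. Within 20 kb of an anchor and outside every loop lay 36 of 194 (18.6%, 13.4 to 24.75%), against 7.78% of like genes. Relative to the loop of their nearest anchor, 42 of 50 near genes of this list lay on the outer side (84%, 70.9 to 92.8%), and the start was the nearer end for 16 of 41 (39.0%, 24.2 to 55.5%), an interval that holds the 45.4% of all genes. No difference between this list and the ribosomal protein genes was tested.

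At anchors the list as a whole was not below the background, and its classes differed in share. A gene end lay at an anchor for 24 of 194 genes (12.4%, 8.09 to 17.85%), an interval that holds the 9.19% of all genes and overlaps that of the members. The rRNA synthesis genes numbered 4 of 27 (14.8%, 4.19 to 33.7%, against 8.82% of like genes). They were Polr1a, Polr1e and Polr2k, subunits of RNA polymerases, and Taf1c, of the polymerase I initiation factor. Assembly factors numbered 16 of 100 (16%, 9.43 to 24.7%), an interval just above the 9.39% of like genes and the 9.19% of all genes. They were Dimt1, Gnl2, Lsg1, Mdn1, Nap1l1, Nhp2, Nmd3, Noc4l, Nop14, Ppan, Riok1, Riok2, Rrp15, Rrp1b, Utp15 and Znhit6. Translation factors numbered 4 of 67 (5.97%, 1.65 to 14.6%, against 8.69% of like genes): Eif2b3, Eif2b5, Eif3g and Eif4g1. Ppan and Eif3g are neighbours on chromosome 9. The loop of highest score at this list was at Lsg1, a GTPase of large subunit maturation (770 kb, peak score 6.62).

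**Figure D4:**
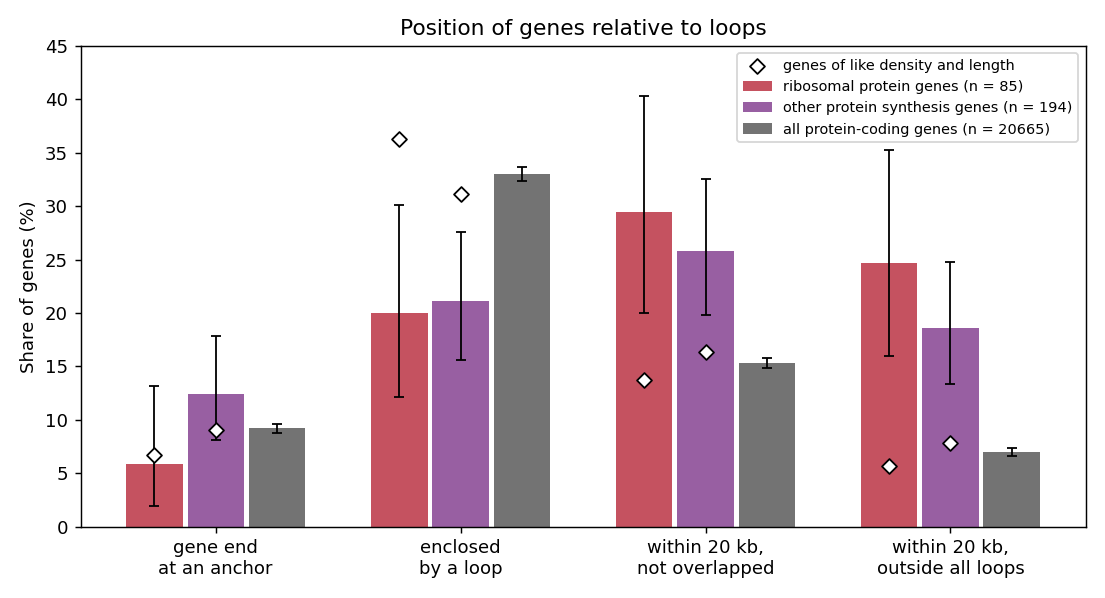
Share of genes (y axis, %) in 4 positions relative to loops, for the 85 ribosomal protein genes, 194 other protein synthesis genes and all 20665 protein-coding genes. Bars are shares, whiskers exact 95% intervals, and diamonds the share of genes of like density and length, which for ribosomal protein genes is above the bar for enclosure (36.3% against 20%) and below it within 20 kb and outside all loops (5.70% against 24.7%).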

How the data were processed

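The authors made the loop list in mm10 with tools that included Juicer 1.5.6, per the submitters' processing notes. The loop caller, its thresholds and any pooling of samples are details not given in the sources used here. Each loop's deposited peak score is the caller's own score without a unit. The deposited signal is the value of the peak pixel in the authors' contact map, of unstated normalization. Both meanings were inferred from the values of a list without a header, and both only describe loops within it. Anchors were read as 1-based intervals, and a span runs between anchor midpoints.

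Genes came from a RefSeq table of GRCm38.p6, without strand. Members were set beside all genes and beside standardised shares over 5 density and 5 length classes, in place of drawn genes, and no test was run. Python 3.11.15, pandas 2.3.3 and SciPy 1.17.1 were used, and the functions were checked on simulated loops. Members and lists, including the split into canonical and other members, were chosen with earlier results of these data known. The 20 kb window was chosen after 10, 20, 50 and 100 kb had been looked at. Named members were those at, nearest to and farthest from anchors, those enclosed, and neighbouring pairs, and named list genes were those at anchors. Some genes that this rule names are not reported here. Anchor sequences were not analysed here. Alternatives covered pixel size, peak score, anchor width, the definition of enclosure, comparison genes and members.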

Additional observations from a re-analysis of the deposited data

How the results depend on the processing

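No paired analysis was possible because the loops were deposited as 1 list for the group, which also left no replicate to omit. Of 146 alternative values, 100 stayed within the limits set for the same result, 36 moved and 10 changed sign. The measures of near members, the windows, and the settings on chromosomes and family symbols were chosen after seeing the data. The cause of each change was not tested, beyond the fewer loops that a stricter list holds.

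The difference in gene ends at anchors between members and like genes changed sign to 0.287 points for canonical members, 0.147 without chromosomes 7 and 17, 0.459 with 10 kb pixels, 0.875 with loops above the median peak score, and 2.94 and 11.69 with anchors widened by 5 and 25 kb. The overlap difference changed to 0.152 for canonical members, 0.432 with 10 kb pixels, 0.799 above the median score and 2.94 with anchors widened by 5 kb. Members with an end at an anchor numbered 0 with loops of 5 kb pixels, 1 with 25 kb pixels, 12 and 30 with anchors widened by 5 and 25 kb, and 2 by the start alone. Overlapped members numbered 0, 1 and 12 under the first 3 of these settings.

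Enclosed members numbered 3, 11 and 5 with loops of 5, 10 and 25 kb pixels, and the difference from like genes was -4.49 points with 5 kb pixels. Members near an anchor and outside every loop numbered 13 with 5 kb pixels, 2 with 25 kb pixels, 9 above the median score, 10 in a window of 10 kb and 38 in one of 100 kb. Their difference from like genes was 1.76 points with 25 kb pixels, 6.82 above the median score and 8.38 within 10 kb. With 25 kb pixels, 100% of near members lay outside the nearest loop and 0% had the start nearer.

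The median distance was 434.5 kb with 5 kb pixels, 90.5 kb with 10 kb, 1524 kb with 25 kb and 152.5 kb above the median score, and the smallest enclosing loop had a median of 625 kb with 25 kb pixels. Of the other protein synthesis genes, ends at anchors numbered 5 and 4 with 5 and 25 kb pixels, 10 above the median score, 47 and 83 with widened anchors, and 14 by the start alone. Enclosed genes of that list numbered 11 with 5 kb pixels, 11 with 25 kb pixels and 25 above the median score.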
